A study of Homo sapiens with 6 samples.

Results

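The genes described here are those that the deposited table annotates to the KEGG pathway of DNA replication (map03030), the proteins that unwind, copy and join DNA in S phase. Of 71 annotated rows among 59962 in the table, 38 reached 1 TPM (the abundance of a transcript per its length, as a share of all transcripts in the library) in at least 2 of 6 libraries. The 38 are 35 named genes and 3 protein-coding rows with clone names, and 37 of them reached 1 TPM in every library. Of the 33 rows under the minimum, 22 were listed at 0 in every library, 27 were pseudogenes, and the highest value was 2.1 TPM in a single library. RPA4, an alternative subunit of a single-strand binding complex, was among them at 0 to 0.10 TPM.

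The libraries came from CFPAC-1, an established human line from a pancreatic ductal adenocarcinoma. The labels give 3 groups of 2 libraries: SULF2 sgRNA1, SULF2 sgRNA3 and the control LACZ, a guide RNA against a bacterial gene. SULF2 encodes an extracellular sulfatase that trims sulfate from heparan sulfate chains, and the design describes its knockdown; no drug, time or further allele is labelled. The sources used here do not give whether the guides cut or repress, whether the lines are clones or pools, or whether the 2 libraries within a group are separate cultures. SULF2 itself stood at 8.98 to 12.8 TPM with sgRNA1 and 9.24 to 10.1 TPM with sgRNA3, against 22.5 to 25.7 TPM with LACZ, and passed the limma test described below with both guides (log2 change -1.09, adjusted p = 0.0338, and -1.23, adjusted p = 0.0215). The sgRNA1 call was lost in each of the 6 fits without a library (0.172 and 0.128 without LACZ library 1 or 2, 0.0781 and 0.0544 without sgRNA1 library 1 or 2, 0.0832 and 0.0828 without sgRNA3 library 1 or 2). The sgRNA3 call was lost without LACZ library 1 (0.117) or 2 (0.10) and without sgRNA3 library 1 (0.10) or 2 (0.109), with the log2 change between -1.33 and -1.14.

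Between 15563 and 15923 genes reached 1 TPM per library, and mitochondrial transcripts took 10.25% to 11.25%. Since TPM removes the read depth, the depth of the libraries is unknown. Of 8 duct epithelial markers, 7 reached 1 TPM, with CFTR under it in every library; their summed level was 7978 to 8160 TPM with sgRNA1, 8585 to 8634 TPM with sgRNA3 and 8996 to 9165 TPM with LACZ. The islet hormones were listed at 0, the 4 acinar markers summed to at most 1.48 TPM, and the 4 fibroblast markers, led by COL1A1, summed to 37.5 to 41.7 TPM with sgRNA3 at the lowest and 77.5 to 77.9 TPM with LACZ at the highest. The 4 leukocyte markers summed to 96.1 to 101 TPM with sgRNA1 and 107 to 110 TPM with sgRNA3, against 91.4 to 95.4 TPM with LACZ, most of it CD68. CD14 had 4.23 and 6.36 TPM with sgRNA1 and 2.26 and 2.52 TPM with sgRNA3, against 3.61 and 8.94 TPM with LACZ. PTPRC and CD3E, which define leukocytes and T cells, were at or near 0. The 3 endothelial markers summed to 3.89 to 4.42 TPM with sgRNA1 and 3.94 to 4.42 TPM with sgRNA3, against 3.88 to 4.70 TPM with LACZ. The part of these marker differences in the results below was not tested.

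In a dividing cell the MCM2 to MCM7 subunits are loaded around DNA as a ring before S phase and later unwind it as the core of the replicative helicase. Polymerase alpha and its primase lay down short RNA and DNA primers, replication factor C (RFC) opens the sliding clamp PCNA and closes it around the primed DNA, and polymerases delta and epsilon extend from there. FEN1, DNA2, ribonuclease H and DNA ligase 1 remove the primers and join the fragments of the lagging strand. Many of these genes are textbook targets of the E2F transcription factors, which act as cells enter S phase.

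All values were tested as log2(TPM + 1) with limma, an intensity trend and Benjamini-Hochberg adjustment over the 16610 genes tested, two-sided, and a gene is said to have risen or fallen where its adjusted p was under 0.05. Both guides are compared with the same LACZ libraries, so the 2 sets of changes are not independent of each other. In bulk RNA, more cells in S phase and more of a transcript per cell cannot be told apart. With sgRNA1, 8 of 38 members were higher (21.1%), against 1.69% of all genes tested, and 1 was lower, against 4.31%; the median log2 change was 0.13 over the members and -0.07 over all genes. With sgRNA3, 10 of 38 were higher (26.3%), against 3.84% of all genes tested, and 1 was lower, against 5.25%. The median was 0.23 over the members and -0.05 over all genes. At an unadjusted p under 0.05 in limma, 4085 of the 16610 genes tested differed with sgRNA1 and 4646 with sgRNA3. These counts are the background for the unadjusted counts of groups and lists below. Median-of-ratios scaling, which centres each library on its median gene, turned the 281 higher and 716 lower genes with sgRNA1 into 610 and 578, and quantile scaling into 442 and 560; with sgRNA3, 637 and 872 became 1020 and 806 under median-of-ratios scaling. The members then counted 9 higher and 0 lower with sgRNA1 under either scaling, and with sgRNA3 12 higher under median-of-ratios and 11 under quantile scaling, with 0 lower. The members that rose were the MCM subunits, PCNA, FEN1, SSBP1 and, with sgRNA3 alone past the threshold, MCM4 and RFC2; POLD4 was the member that fell. Both libraries lay above both LACZ libraries for 19 members with sgRNA1 (19.8% of all genes did) and 21 with sgRNA3 (24.8%), and both lay below for 4 (35.2%) and 5 (34.3%). The 19 include the clone-named row AC117378.1, which reached the TPM minimum only through sgRNA1. Without the clone-named rows, 18 of 35 lay above with sgRNA1 and 21 of 35 with sgRNA3, and 4 lay below with either guide.

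**Figure D1:**
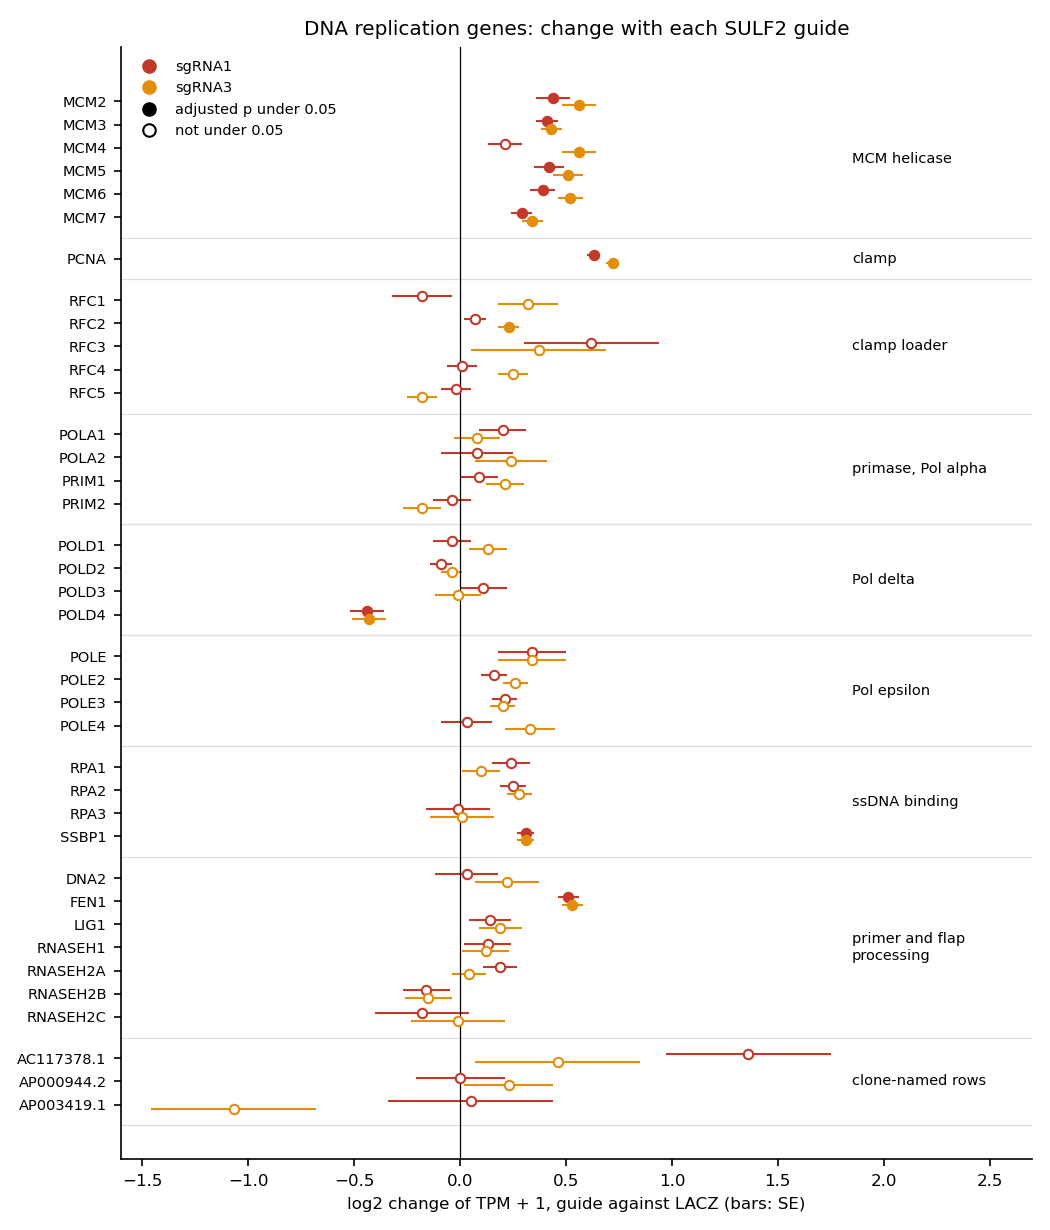
Log2 change of TPM + 1 against LACZ (horizontal axis) for each of the 38 DNA replication genes, grouped by role, with sgRNA1 in red and sgRNA3 in orange. Bars are standard errors from the limma fit, filled points have an adjusted p under 0.05; the filled points sit in the MCM, PCNA, FEN1, SSBP1 and RFC2 rows on the right and at POLD4 on the left.

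The MCM helicase was the group with the most members past the threshold: 5 of 6 subunits rose with sgRNA1 (median log2 change 0.40) and 6 of 6 with sgRNA3 (median 0.52). MCM2 (ENSG00000073111, chr3:127598223-127622436, plus strand) had 76.3 and 67.4 TPM with sgRNA1 and 76.2 and 79.6 TPM with sgRNA3, against 53.2 and 51.9 TPM with LACZ. MCM3 (ENSG00000112118, chr6:52264009-52284881, minus strand) had 121 and 122 TPM with sgRNA1 and 120.2 and 126 TPM with sgRNA3, against 88.5 and 93.1 TPM with LACZ. Every library of either guide lay above both control libraries for these subunits. The log2 change of MCM2 was 0.44 with sgRNA1 (SE 0.08, adjusted p = 0.0366) and 0.56 with sgRNA3 (SE 0.08, adjusted p = 0.0179). That of MCM3 was 0.41 with sgRNA1 (SE 0.05, adjusted p = 0.0164) and 0.43 with sgRNA3 (SE 0.05, adjusted p = 0.0129). Both are subunits of the ring, and MCM2 is also known to carry histones behind the helicase.

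MCM5 (ENSG00000100297, chr22:35400063-35425430, plus strand), which forms with MCM2 the gate through which DNA enters the ring, had 39.2 and 38.5 TPM with sgRNA1 and 42.1 and 41.1 TPM with sgRNA3, against 27.9 and 29.8 TPM with LACZ. MCM6 (ENSG00000076003, chr2:135839626-135876426, minus strand) had 54.6 and 54.7 TPM with sgRNA1 and 60.6 and 59.2 TPM with sgRNA3, against 40.1 and 42.9 TPM with LACZ. Neither gene overlapped between guide and control libraries. MCM5 rose by 0.42 on the log2 scale with sgRNA1 (SE 0.07, adjusted p = 0.0307) and by 0.51 with sgRNA3 (SE 0.07, adjusted p = 0.0157). MCM6 rose by 0.39 with sgRNA1 (SE 0.06, adjusted p = 0.0292) and by 0.52 with sgRNA3 (SE 0.06, adjusted p = 0.0128).

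MCM7 (ENSG00000166508, chr7:100092728-100101940, minus strand), whose introns host a microRNA cluster, had 209 and 195 TPM with sgRNA1 and 212 and 206 TPM with sgRNA3, against 164 and 165 TPM with LACZ. Its change was the smallest of the 6 with sgRNA3, at 0.34 on the log2 scale (SE 0.05, adjusted p = 0.0202), and was 0.29 with sgRNA1 (SE 0.05, adjusted p = 0.0341). MCM4 (ENSG00000104738), a subunit of the catalytic core with MCM6 and MCM7, had 146 and 140.1 TPM with sgRNA1 and 193 and 172.5 TPM with sgRNA3, against 118 and 129 TPM with LACZ. Its sgRNA1 libraries lay above the controls by less than the test asks (log2 change 0.21, SE 0.08, adjusted p = 0.177), while it rose with sgRNA3 (0.56, SE 0.08, adjusted p = 0.0185). The difference between the guides for MCM4 was 0.35 (95% interval 0.16 to 0.55, unadjusted p = 0.00504, adjusted p = 0.147 in limma) and did not pass the threshold.

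Ranked by TPM, which is per transcript length, the order of the subunits was MCM7, MCM4, MCM3, MCM2, MCM6 and MCM5 from high to low in 6 of 6 libraries, and the highest stood 5.01 to 5.90 times above the lowest within a library. With 2 libraries a group, the MCM calls were lost in most fits with a library left out. With sgRNA1 most were lost even without an sgRNA3 library, which lies outside that comparison. A lost call is therefore not read as dependence on a particular library. With sgRNA1, 0 of the 5 calls were kept without LACZ library 1 (adjusted p 0.0983 to 0.16), LACZ library 2 (0.075 to 0.157), sgRNA1 library 1 (0.0736 to 0.107), sgRNA1 library 2 (0.0685 to 0.124) or sgRNA3 library 2 (0.0502 to 0.0861), and only MCM3 was kept without sgRNA3 library 1 (0.05, rounded, to 0.0862 over the 5). With sgRNA3, 0 of the 6 were kept without LACZ library 1 (0.0746 to 0.103), LACZ library 2 (0.0587 to 0.105), sgRNA3 library 1 (0.067 to 0.114) or sgRNA3 library 2 (0.062 to 0.101), and 6 were kept without either sgRNA1 library. The log2 changes of the called subunits stayed between 0.24 and 0.53 with sgRNA1 and between 0.32 and 0.65 with sgRNA3 in these fits. Without the intensity trend 0 of 5 and 2 of 6 were kept (adjusted p 0.0716 to 0.123 and 0.0483 to 0.0834), and with only the 2 groups in the fit 0 of 5 and 6 of 6 (0.0505 to 0.0867 and 0.0283 to 0.0498). With no low-value filter 3 of 5 and 6 of 6 were kept (0.0316 to 0.0698 and 0.0225 to 0.0454).

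**Figure D2:**
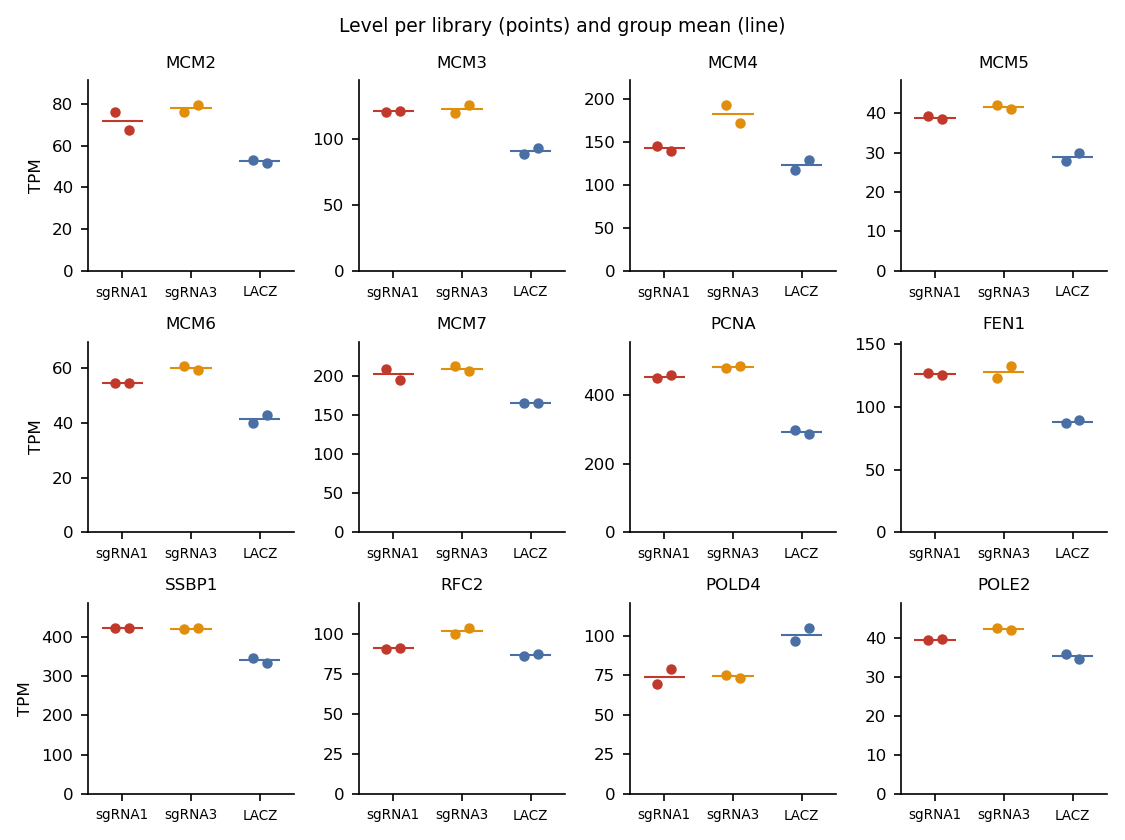
TPM per library (points) and group mean (lines) for the 6 MCM subunits, PCNA, FEN1, SSBP1, RFC2, POLD4 and, as a member that did not pass, POLE2, each on its own axis from 0. For every gene shown but POLD4 the guide libraries lie above the LACZ libraries, and for POLD4 they lie below.

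PCNA (ENSG00000132646, chr20:5114953-5126626, minus strand), the ring that holds the polymerases and many repair proteins on DNA, was the member that changed with the smallest adjusted p. It had 451 and 459 TPM with sgRNA1 and 479 and 484 TPM with sgRNA3, against 298 and 288 TPM with LACZ. The lowest guide library thus stood far above the highest control library. The ratio of means was 1.55 with sgRNA1 (log2 change 0.63, SE 0.03, adjusted p = 0.00173) and 1.64 with sgRNA3 (0.72, SE 0.03, adjusted p = 0.0013). Both calls were kept with each library left out in turn (adjusted p 0.0143 to 0.0255 with sgRNA1 and 0.0112 to 0.0237 with sgRNA3). Between the guides PCNA differed by 0.08 (95% interval 0.00 to 0.17, adjusted p = 0.343). PCNA was the most abundant member in the 4 guide libraries, ahead of SSBP1, whereas in both LACZ libraries SSBP1 was ahead of PCNA. Among all genes tested, the PCNA change stood at percentile 95.9 with sgRNA1 and 95.6 with sgRNA3, and those of the 6 MCM subunits at 83.0 to 92.9 and at 87.2 to 93.6.

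The stretches around the starts of MCM2, MCM3, MCM6, MCM7 and PCNA are shown because these genes rose with both guides and hold an E2F motif there. The spelling of the motif, given below, is not the same in all of them. FEN1 and SSBP1 also rose with both guides and are not shown. The SSBP1 window holds a match and the FEN1 window does not. RefSeq windows from 250 bases before to 50 bases after the most upstream start (GRCh38.p14) were matched by symbol to 29 of the 38 members; those not matched are MCM4, MCM5, POLD3, RPA2, RPA3, DNA2 and the 3 clone-named rows. Capitals mark the E2F motif, searched as TTTGGCGC, TTTGCCGC, TTTCGCGC or TTTCCCGC on both strands, so that a match to the opposite strand reads reversed and complemented, and matches that overlap are joined. The windows are MCM2 at chr3:127598161-127598460 (plus strand), MCM3 at chr6:52284693-52284992, MCM6 at chr2:135876394-135876693, MCM7 at chr7:100101348-100101647, PCNA at chr20:5126573-5126872 and, as the member that fell, POLD4 at chr11:67353547-67353846 (the last 5 on the minus strand), each written 5′ to 3′ along its gene.
MCM2: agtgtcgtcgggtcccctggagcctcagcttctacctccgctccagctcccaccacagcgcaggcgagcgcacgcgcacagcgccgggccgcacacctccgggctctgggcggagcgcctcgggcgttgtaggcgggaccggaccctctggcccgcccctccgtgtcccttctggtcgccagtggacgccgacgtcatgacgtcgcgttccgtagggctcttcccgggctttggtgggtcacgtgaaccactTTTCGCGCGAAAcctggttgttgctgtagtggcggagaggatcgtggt
MCM3: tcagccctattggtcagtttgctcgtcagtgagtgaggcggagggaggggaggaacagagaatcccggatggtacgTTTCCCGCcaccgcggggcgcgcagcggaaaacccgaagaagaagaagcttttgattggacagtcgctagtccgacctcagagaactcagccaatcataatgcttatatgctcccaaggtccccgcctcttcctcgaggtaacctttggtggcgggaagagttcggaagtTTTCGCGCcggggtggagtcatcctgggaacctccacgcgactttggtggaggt
MCM6: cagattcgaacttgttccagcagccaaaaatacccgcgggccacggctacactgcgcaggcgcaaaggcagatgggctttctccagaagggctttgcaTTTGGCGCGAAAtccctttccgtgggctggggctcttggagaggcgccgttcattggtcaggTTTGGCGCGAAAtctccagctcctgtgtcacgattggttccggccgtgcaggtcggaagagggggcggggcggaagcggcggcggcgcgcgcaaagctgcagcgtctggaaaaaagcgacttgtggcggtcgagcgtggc
MCM7: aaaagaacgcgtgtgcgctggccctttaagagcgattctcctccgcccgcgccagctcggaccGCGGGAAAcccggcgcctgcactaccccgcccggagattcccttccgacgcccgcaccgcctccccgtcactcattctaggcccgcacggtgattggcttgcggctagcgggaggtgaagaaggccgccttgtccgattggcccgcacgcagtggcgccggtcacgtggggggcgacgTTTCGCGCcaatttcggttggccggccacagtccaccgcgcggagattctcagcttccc
PCNA: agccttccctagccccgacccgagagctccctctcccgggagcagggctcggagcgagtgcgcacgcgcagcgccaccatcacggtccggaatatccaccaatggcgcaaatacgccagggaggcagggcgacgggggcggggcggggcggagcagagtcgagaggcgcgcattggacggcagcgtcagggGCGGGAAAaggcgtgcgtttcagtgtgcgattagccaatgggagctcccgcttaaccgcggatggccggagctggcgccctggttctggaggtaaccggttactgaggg
POLD4: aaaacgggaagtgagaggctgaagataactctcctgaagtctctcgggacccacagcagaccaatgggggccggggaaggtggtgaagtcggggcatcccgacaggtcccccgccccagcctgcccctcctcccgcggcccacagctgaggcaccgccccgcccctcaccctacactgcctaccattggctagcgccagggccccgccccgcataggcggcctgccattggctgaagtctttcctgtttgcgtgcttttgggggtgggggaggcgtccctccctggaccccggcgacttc

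The motif stood in the windows of MCM2, MCM3, MCM6 and MCM7, the 4 matched of 6 MCM genes, and in the PCNA window. It stood in 13 of 29 member windows (44.83%), against 911 of 27305 windows of the whole RefSeq set (3.34%). That set includes genes not tested here, while the members all passed the TPM minimum. MCM6 carried the run TTTGGCGCGAAA at 2 places and MCM2 the run TTTCGCGCGAAA at 1. Among members with a window, 6 of the 8 that were higher with at least 1 guide held the motif (75.0%), and so did 7 of the 21 others (33.33%), among them 5 of 11 polymerase subunits (45.45%). The FEN1 and RFC2 windows had no match. The POLD4 window had no match either. The windows of MCM7, FEN1, POLD2, POLD4, RFC4, RFC5, RPA1, LIG1 and RNASEH1 lie inside the genes as GENCODE 29 draws them. They are not at the 5′ ends there, so the annotations place these starts differently. The CCAAT box (CCAAT, both strands), a short element common in promoters of S-phase and mitosis genes, was in 15 of 29 member windows (51.72%) and in 9751 of all windows (35.71%). A match of letters is a description of the window and does not show that a factor binds there.

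**Figure D3:**
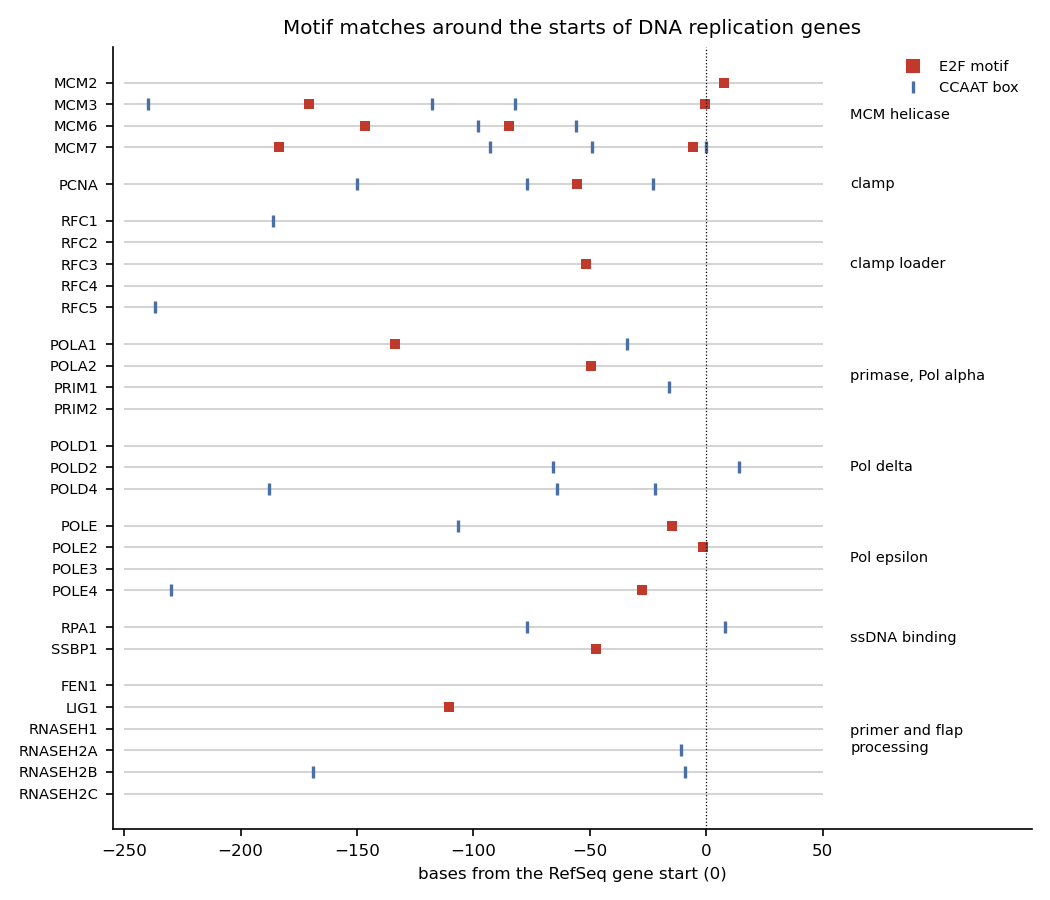
Positions of the E2F motif (red squares) and the CCAAT box (blue ticks) around the annotated start of the 29 members with a RefSeq window, in bases from the start (0), grouped by role. The rows of the 4 MCM genes shown and of PCNA each hold at least 1 red square, as do 5 of the 11 polymerase rows and the RFC3, SSBP1 and LIG1 rows.

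The clamp loader RFC has 5 subunits. With sgRNA1, 0 of 5 passed the threshold in limma (median log2 change 0.01; 0 at an unadjusted p under 0.05), and with sgRNA3 RFC2 was the only one of the 5 that did (median 0.25; 3 at an unadjusted p under 0.05). RFC2 (ENSG00000049541, chr7:74231499-74254458, minus strand), a small subunit shared by RFC and its alternative forms, had 90.8 and 91.7 TPM with sgRNA1 and 99.9 and 104 TPM with sgRNA3, against 86.1 and 87.4 TPM with LACZ. Its libraries did not overlap between either guide and LACZ, and its log2 change was 0.23 with sgRNA3 (SE 0.05, adjusted p = 0.0448) and 0.07 with sgRNA1 (SE 0.05, adjusted p = 0.408). The difference between the guides was 0.16 (95% interval 0.04 to 0.28, adjusted p = 0.223) and did not pass. The sgRNA3 call was lost with each of the 6 libraries left out in turn, at 0.166 and 0.146 without LACZ library 1 or 2, 0.131 and 0.18 without sgRNA3 library 1 or 2, and 0.0727 and 0.073 without sgRNA1 library 1 or 2. It was also lost with no low-value filter (0.0573), with no trend (0.135) and with only the 2 groups in the fit (0.0727).

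Among the other loader subunits, RFC1, the large subunit, had 68.0 and 53.6 TPM with sgRNA1 and 93.1 and 79.4 TPM with sgRNA3, against 66.4 and 70.9 TPM with LACZ, so only the sgRNA3 libraries lay apart from the controls (log2 change 0.32, adjusted p = 0.20). RFC3 had 25.0 and 52.1 TPM with sgRNA1 and 29.7 and 30.6 TPM with sgRNA3, against 23.5 and 22.8 TPM with LACZ. The pair of sgRNA1 libraries thus differed more from each other than the groups did, and RFC3 had the largest standard error of the named members (log2 change 0.62 with sgRNA1, SE 0.32, adjusted p = 0.31). RFC4 and RFC5 had log2 changes of 0.01 and -0.02 with sgRNA1 and of 0.25 (adjusted p = 0.093) and -0.18 (adjusted p = 0.164) with sgRNA3.

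In limma 0 of the 12 subunits of polymerases alpha, delta and epsilon rose with either guide, and 1, POLD4, fell with both. At an unadjusted p under 0.05 in limma, 3 of the 12 differed with sgRNA1 and 4 with sgRNA3. Of all 16610 genes tested 4085 and 4646 did, so these counts are not read as a result about the polymerase subunits. Their median log2 change was 0.08 with sgRNA1 and 0.16 with sgRNA3, with single values from -0.44 to 0.34 and from -0.43 to 0.34. POLD4 (ENSG00000175482, chr11:67350777-67356972, minus strand), the smallest subunit of polymerase delta and known to be degraded as protein after DNA damage and in S phase, had 69.5 and 78.8 TPM with sgRNA1 and 75.2 and 73.4 TPM with sgRNA3, against 96.5 and 105 TPM with LACZ. Every guide library lay below both controls, and the log2 change was -0.44 with sgRNA1 (SE 0.08, adjusted p = 0.0429) and -0.43 with sgRNA3 (SE 0.08, adjusted p = 0.0372). The catalytic subunit POLD1 and the accessory subunits POLD2 and POLD3 had log2 changes of -0.04, -0.09 and 0.11 with sgRNA1 and of 0.13, -0.04 and -0.01 with sgRNA3.

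The POLD4 calls were close to the threshold. Without LACZ library 1 or 2 the adjusted p was 0.133 or 0.174 with sgRNA1 and 0.109 or 0.154 with sgRNA3. Without library 1 or 2 of the guide itself it was 0.113 or 0.0795 with sgRNA1 and 0.139 or 0.15 with sgRNA3; without sgRNA3 library 1 or 2 it was 0.0973 or 0.0969 with sgRNA1. Median-of-ratios scaling gave 0.0917 and 0.0664, and the quantile scaling gave 0.0799 and 0.0501, at log2 changes between -0.44 and -0.36. Testing genes with no low-value filter gave 0.0855 and 0.0773, dropping the trend 0.0999 and 0.0876, and fitting only the 2 groups 0.0974 and 0.0453. RAD9A, on the opposite strand, spans all 6196 bases of POLD4 in GENCODE 29, and the clone-named row AP003419.1 overlaps 5401 of them on the same strand; the strandedness of the libraries is not given, so their reads may not be separable. The sum of POLD4 and AP003419.1 was 92.1 and 100.1 TPM with sgRNA1 and 90.5 and 79.3 TPM with sgRNA3, against 117 and 126 TPM with LACZ, and so also lay below the controls in every guide library.

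Polymerase epsilon, the leading-strand polymerase, had a median log2 change of 0.18 with sgRNA1 and 0.30 with sgRNA3, and 0 of its 4 subunits passed the threshold in limma (2 and 3 at an unadjusted p under 0.05). The catalytic subunit POLE had 33.8 and 40.7 TPM with sgRNA1 and 34.8 and 39.4 TPM with sgRNA3, against 25.3 and 33.4 TPM with LACZ, a log2 change of 0.34 with either guide (SE 0.16, adjusted p = 0.273 with sgRNA1 and 0.251 with sgRNA3). POLE2 had 39.5 and 39.6 TPM with sgRNA1 and 42.6 and 42.1 TPM with sgRNA3, against 35.9 and 34.6 TPM with LACZ, and came nearest to the threshold (log2 change 0.26 with sgRNA3, adjusted p = 0.0588). The small subunits POLE3 and POLE4, which also bind histones, had log2 changes of 0.21 and 0.03 with sgRNA1 and of 0.20 and 0.33 with sgRNA3, and neither passed. In the alpha and primase group, POLA1, the lowest named member at 8.98 to 10.7 TPM over all libraries, had log2 changes of 0.20 with sgRNA1 and 0.08 with sgRNA3. POLA2, PRIM1 and PRIM2 lay between -0.04 and 0.09 with sgRNA1 and between -0.18 and 0.24 with sgRNA3, with no adjusted p under the threshold.

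Among the proteins that coat single-stranded DNA, SSBP1 rose with both guides and the RPA subunits did not pass. SSBP1 (ENSG00000106028, chr7:141738321-141787922, plus strand) is the mitochondrial single-strand binding protein, so it serves mitochondrial and not nuclear DNA. It had 422 and 421 TPM with sgRNA1 and 418 and 422 TPM with sgRNA3, against 347 and 332 TPM with LACZ. The guide libraries lay within a few TPM of each other and above both controls, with a log2 change of 0.31 with either guide (SE 0.04, adjusted p = 0.0145 with sgRNA1 and 0.0128 with sgRNA3). The sgRNA1 call was lost in each of the 6 fits with a library left out: the adjusted p was 0.0634 and 0.0772 without LACZ library 1 or 2, 0.0682 and 0.0795 without sgRNA1 library 1 or 2, and 0.0529 without either sgRNA3 library. The sgRNA3 call was lost without LACZ library 1 (0.0534), LACZ library 2 (0.0731), sgRNA3 library 1 (0.0804) or sgRNA3 library 2 (0.0863). Both were lost without the trend (0.0987 and 0.0866), and the sgRNA1 call with only the 2 groups in the fit (0.0535).

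RPA1, RPA2 and RPA3 form the nuclear complex that protects unwound DNA. RPA2 had 67.0 and 62.5 TPM with sgRNA1 and 66.1 and 65.7 TPM with sgRNA3, against 56.0 and 52.3 TPM with LACZ, all guide libraries above the controls, with log2 changes of 0.25 (adjusted p = 0.0865) and 0.28 (adjusted p = 0.0602). RPA1 was at 0.24 with sgRNA1 (adjusted p = 0.193) and 0.10 with sgRNA3 (adjusted p = 0.529). RPA3, at 44.4 and 56.3 TPM in the 2 LACZ libraries, varied more within a group than between groups, with log2 changes of -0.01 and 0.01.

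FEN1 was the only one of the 7 genes for primer removal and fragment joining that rose, and it did so with both guides. FEN1 (ENSG00000168496, chr11:61792637-61797244, plus strand), the nuclease that cuts the displaced flap and is held by PCNA, had 127 and 126 TPM with sgRNA1 and 123 and 132 TPM with sgRNA3, against 87.2 and 89.8 TPM with LACZ. Every guide library lay above both controls, and the log2 change was 0.51 with sgRNA1 (SE 0.05, adjusted p = 0.011) and 0.53 with sgRNA3 (SE 0.05, adjusted p = 0.00933). The sgRNA1 call was lost without LACZ library 1 (0.0878), LACZ library 2 (0.0693), sgRNA1 library 1 (0.0626) or sgRNA1 library 2 (0.0722), and the sgRNA3 call without LACZ library 1 (0.0686), LACZ library 2 (0.0633) or sgRNA3 library 2 (0.062); without the trend the sgRNA1 call was lost as well (0.0583). FADS2, a fatty acid desaturase gene on the same strand, overlaps 4265 bases of FEN1 and averaged 97.9 TPM with sgRNA1 and 115 TPM with sgRNA3, against 128 TPM with LACZ, the other direction from FEN1. The 7 genes had a median log2 change of 0.13 with sgRNA1 and 0.12 with sgRNA3. LIG1, the ligase, stood at 0.14 and 0.19, the nuclease and helicase DNA2 at 0.03 and 0.22, and RNASEH1 at 0.13 and 0.12. The ribonuclease H2 subunits RNASEH2A, RNASEH2B and RNASEH2C stood at 0.19, -0.16 and -0.18 with sgRNA1 and at 0.04, -0.15 and -0.01 with sgRNA3. None of these passed the threshold.

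The 3 clone-named members are loci that GENCODE 29 lays across 2 neighbouring genes of the same strand each. RAD9A, on the opposite strand, also overlaps 22013 bases of AP003419.1, and their reads may not be separable. AP003419.1, across POLD4 and CLCF1, had 22.6 and 21.3 TPM with sgRNA1 and 15.3 and 5.86 TPM with sgRNA3, against 20.7 and 21.5 TPM with LACZ. The 2 sgRNA3 libraries were both lower than the controls but far apart (log2 change -1.07, SE 0.39, adjusted p = 0.155). AC117378.1, which shares 9940 bases with PRIM1, had 1.29 and 1.86 TPM with sgRNA1 and 0 and 0.89 TPM with sgRNA3 and was listed at 0 in both LACZ libraries, so it entered only through sgRNA1. AP000944.2, which shares 43662 bases with POLA2, stayed between 9.65 and 15.4 TPM in all libraries, with overlap between groups.

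The levels were also summed per role. The 6 MCM transcripts summed to 645 and 617 TPM with sgRNA1 and 704 and 684 TPM with sgRNA3, against 492 and 512 TPM with LACZ. The 12 polymerase subunits summed to 525 and 519 TPM with sgRNA1 and 549 and 535 TPM with sgRNA3, against 522 and 537 TPM with LACZ, so that the libraries of each guide overlapped those of LACZ. This sum joins groups on opposite sides of the controls. The 4 polymerase delta subunits summed to 239 and 238 TPM with sgRNA1 and 246 and 244 TPM with sgRNA3, against 264.5 and 276 TPM with LACZ. The 4 polymerase epsilon subunits summed to 150.2 and 154 TPM with sgRNA1 and 163 and 159 TPM with sgRNA3, against 128 and 137 TPM with LACZ. The guide libraries were thus all below the controls for delta and all above them for epsilon. Within delta only POLD4 passed the threshold, and the log2 changes of POLD1, POLD2 and POLD3 lay between -0.09 and 0.13. The delta sum is therefore not read as a fall of the other subunits. In each LACZ library the MCM sum was thus below the polymerase sum, and in each guide library above it: the ratio was 1.23 and 1.19 with sgRNA1 and 1.28 and 1.28 with sgRNA3, against 0.94 and 0.95 with LACZ. The sum of the 5 clamp loader subunits was 282 and 296 TPM with sgRNA1 and 324 and 325 TPM with sgRNA3, against 278 and 277 TPM with LACZ. The 4 single-strand binding transcripts summed to 592 and 584 TPM with sgRNA1 and 590 and 578 TPM with sgRNA3, against 489 and 488 TPM with LACZ. The 7 genes of primer and flap processing summed to 309 and 297 TPM with sgRNA1 and 316 and 306 TPM with sgRNA3, against 258 and 265 TPM with LACZ. For these groups too the guide libraries were all above the controls. Such sums weigh genes by level, so single genes can carry them. The sgRNA1 loader sums included RFC3 at 25.0 and 52.1 TPM, against 23.5 and 22.8 TPM with LACZ. FEN1 was the only primer and flap gene that passed the threshold, and the mitochondrial SSBP1 the only single-strand binding gene. PCNA stood at 1.6 and 1.55 times the clamp loader sum with sgRNA1 and 1.48 and 1.49 times with sgRNA3, against 1.07 and 1.04 times with LACZ. Relative to the 4 polymerase delta subunits PCNA stood at 1.89 and 1.93 with sgRNA1 and 1.94 and 1.99 with sgRNA3, against 1.13 and 1.04 with LACZ. An exact permutation test of 2 libraries against 2 cannot go below p = 0.333, so these ratios are given as descriptions.

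**Figure D4:**
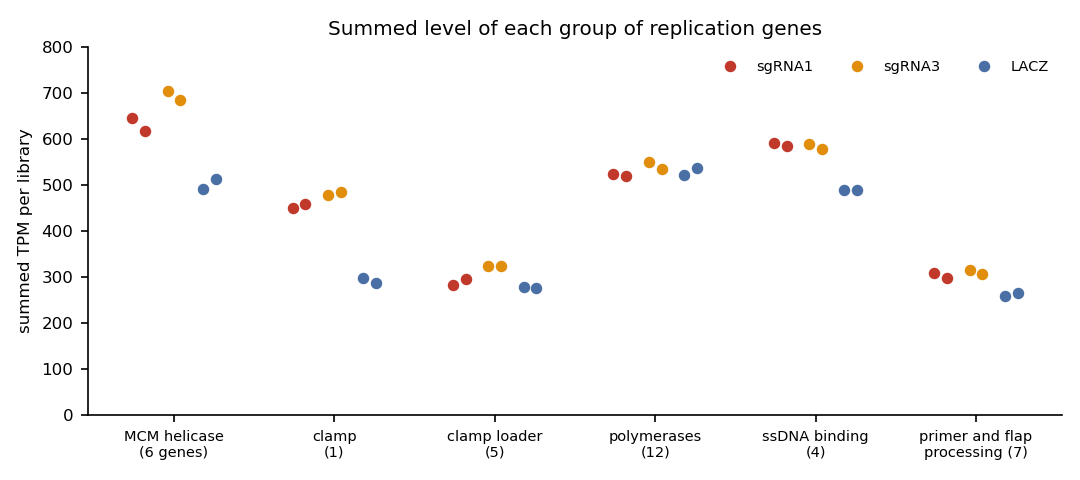
Summed TPM per library of each role group of DNA replication genes, with sgRNA1 in red, sgRNA3 in orange and LACZ in blue, on an axis from 0. The guide libraries lie above LACZ for the MCM helicase (617 to 704 against 492 and 512 TPM), the clamp, the clamp loader, single-strand binding, and primer and flap processing, and overlap LACZ for the 12 polymerase subunits. Single genes, among them RFC3 with sgRNA1, FEN1 and SSBP1, weigh on these sums.

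The guides were also set directly against each other. With sgRNA3 against sgRNA1, 0 of 38 members were higher, against 0.391% of all genes tested, and 0 were lower, against 0.187%, in limma with adjustment over all genes. At an unadjusted p under 0.05 in limma, 6 of the 38 differed, namely MCM4, RFC1, RFC2, RFC4, POLE4 and AP003419.1, named after their values were seen. Of all 16610 genes tested 2550 did, a share close to that of the members. The 6 are therefore not read as a result about the members. Both sgRNA3 libraries lay above both sgRNA1 libraries for 12 members (28.2% of all genes did) and below for 7 (18.8%). The 7 include AC117378.1, which reached the TPM minimum only through sgRNA1. Without the clone-named rows 12 of 35 lay above and 5 below. The largest of the 6 among named genes was RFC1, at 0.50 on the log2 scale (95% interval 0.16 to 0.85, adjusted p = 0.203). For the subunits that rose with both guides the intervals of the guide difference were -0.07 to 0.31 for MCM2, -0.11 to 0.15 for MCM3, -0.07 to 0.26 for MCM5, -0.02 to 0.28 for MCM6 and -0.07 to 0.17 for MCM7. These intervals leave room for differences of those sizes.

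Outside the pathway annotation, 46 genes of origin licensing, helicase activation, alternative clamp loaders, chromatin assembly and deoxynucleotide supply were listed from textbook roles. The lists were made with earlier results of these data known, so their shares are descriptions. With sgRNA1, 5 of the 46 were higher and 1 lower (median log2 change 0.12), and with sgRNA3, 11 were higher and 2 lower (median 0.19). As shares, 10.9% and 23.9% were higher, against the 1.69% and 3.84% of all genes tested given above. Those shares, with 4.31% and 5.25% lower, are the background for each list that follows. For counts at an unadjusted p under 0.05 in limma, the background is the 4085 and 4646 of 16610 genes given above. Of the 46, 10 genes license origins or restrain licensing, and with sgRNA1 0 of them passed in limma (median 0.04; 4 at an unadjusted p under 0.05) while 3 rose with sgRNA3 (median 0.19). CDC6, which loads the MCM ring, had 151 and 141 TPM with sgRNA1 and 178 and 177 TPM with sgRNA3, against 135 and 136 TPM with LACZ. Its guide libraries lay above the controls, and it rose with sgRNA3 (log2 change 0.38, SE 0.05, adjusted p = 0.0135) but not past the threshold with sgRNA1 (0.10, adjusted p = 0.246). ORC1, the largest subunit of the origin recognition complex, rose by 0.59 with sgRNA3 (adjusted p = 0.036) and stood at 0.53 with sgRNA1 (adjusted p = 0.0555). GMNN, the inhibitor of relicensing, rose by 0.49 with sgRNA3 (adjusted p = 0.0483) and stood at 0.29 with sgRNA1 (adjusted p = 0.16). The difference between guides passed for none of the 3 (CDC6 0.28, adjusted p = 0.0957). CDT1, the licensing factor that GMNN inhibits, lay on the other side and is named after its values were seen. It had 29.96 and 23.96 TPM with sgRNA1 and 28.95 and 28.85 TPM with sgRNA3, against 36.1 and 37.1 TPM with LACZ. Every guide library was thus below both controls, at log2 changes of -0.44 (adjusted p = 0.0918) and -0.33 (adjusted p = 0.137) that did not pass.

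Of 17 helicase activators and fork proteins, 3 rose with sgRNA1 (median 0.18), and with sgRNA3 4 rose and 1 fell (median 0.27). CLSPN, the checkpoint mediator claspin that travels with the fork, had 23.7 and 23.6 TPM with sgRNA1 and 25.9 and 27.1 TPM with sgRNA3, against 16.1 and 16.8 TPM with LACZ. It rose with both guides, by 0.50 (SE 0.08, adjusted p = 0.028) and 0.66 (SE 0.08, adjusted p = 0.0127). The 4 GINS genes encode 1 complex that joins MCM and CDC45 in the active helicase, and for each of them both libraries of either guide lay above both controls. GINS1 rose by 0.72 (adjusted p = 0.0256) and GINS4 by 0.53 (adjusted p = 0.0432) with sgRNA1 but stood at 0.25 and 0.27 with sgRNA3. GINS2 rose by 0.66 with sgRNA3 (adjusted p = 0.0148) and stood at 0.39 with sgRNA1 (adjusted p = 0.0581). GINS3 (0.38) and MCM10 (0.43) rose with sgRNA3 and DBF4, the activator of the CDC7 kinase, fell by 0.44; these 3 are named after their values were seen.

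The alternative clamp loaders held changes of both signs. CHTF18, DSCC1 and CHTF8 join the small RFC subunits, in place of RFC1, in 1 such loader. DSCC1 had 24.9 and 25.9 TPM with sgRNA1 and 26.0 and 32.6 TPM with sgRNA3, against 15.2 and 14.2 TPM with LACZ, and rose by 0.75 (adjusted p = 0.034) and 0.94 (adjusted p = 0.0168). CHTF18 had 24.1 and 25.6 TPM with sgRNA1 and 24.6 and 25.3 TPM with sgRNA3, against 18.4 and 17.04 TPM with LACZ, and rose by 0.47 with either guide (adjusted p = 0.04 and 0.0331). CHTF8 had 58.1 and 59.4 TPM with sgRNA1 and 57.6 and 59.3 TPM with sgRNA3, against 76.4 and 83.6 TPM with LACZ, and fell by 0.44 (adjusted p = 0.0252) and 0.45 (adjusted p = 0.0206). Transcripts of partners in 1 complex thus lay on opposite sides of the controls. The remaining members of the list, ATAD5 and RAD17, did not pass.

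For deoxynucleotide supply, 0 of 10 genes passed with sgRNA1 in limma (median 0.08; 3 at an unadjusted p under 0.05), and 2 rose with sgRNA3 (median 0.16). These were RRM2, the regulated subunit of ribonucleotide reductase, by 0.57 (adjusted p = 0.0261), and SAMHD1, which degrades deoxynucleotides, by 0.72 (adjusted p = 0.00975). SAMHD1 had 42.3 and 41.1 TPM with sgRNA1 and 54.5 and 56.4 TPM with sgRNA3, against 35.1 and 31.6 TPM with LACZ. The 4 chromatin assembly genes had 0 members past the threshold with either guide in limma (1 with sgRNA1 and 0 with sgRNA3 at an unadjusted p under 0.05). A list of 6 S-phase genes held the cyclins CCNE1, CCNE2 and CCNA2, together with CDK2, CDC25A and SKP2, which are not cyclins. SKP2, which directs the inhibitor p27 to degradation, rose with both guides. CCNE2 (0.78, adjusted p = 0.0159) and CDC25A (1.03, adjusted p = 0.0235) rose with sgRNA3. SKP2 had 19.6 and 17.99 TPM with sgRNA1 and 19.2 and 18.1 TPM with sgRNA3, against 8.88 and 7.71 TPM with LACZ.

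The E2F and RB factors themselves and the mitosis genes had few members past the threshold. Of 13 E2F and RB factors, 0 passed with sgRNA1 in limma (median -0.05; 3 at an unadjusted p under 0.05). With sgRNA3, TFDP1, a dimer partner of the E2Fs, rose by 0.33 (adjusted p = 0.043) and its relative TFDP2 fell by 0.37 (adjusted p = 0.047), at a list median of 0.06. Of 20 mitosis genes, UBE2C rose with sgRNA1 by 0.21 (adjusted p = 0.0476; list median 0.03) and 0 passed with sgRNA3 in limma (median -0.02; 2 at an unadjusted p under 0.05). A single call is 7.69% of the 13 and 5% of the 20, so these calls are not read as results about the lists. None of these lists had a member past the threshold between the guides. Most calls of the genes named by the smallest p were lost in most fits with a library left out, though their log2 changes kept direction. Some were lost even where the library left out belonged to the guide outside the comparison. A lost call is therefore not read as dependence on a particular library. Of the 8 with sgRNA1 among the genes named by the smallest p, 0 were kept without LACZ library 1 (adjusted p 0.0545 to 0.192), LACZ library 2 (0.0633 to 0.175), sgRNA1 library 1 (0.0626 to 0.114) or sgRNA1 library 2 (0.0678 to 0.157), and SKP2 and DSCC1 were kept without either sgRNA3 library. Of the 15 with sgRNA3, SAMHD1 and SKP2 were kept without LACZ library 1 (0.0442 to 0.177), 0 without LACZ library 2 (0.0572 to 0.15), DSCC1 without sgRNA3 library 1 (0.0369 to 0.182) and 0 without sgRNA3 library 2 (0.066 to 0.168), while 10 were kept without either sgRNA1 library.

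**Figure D5:**
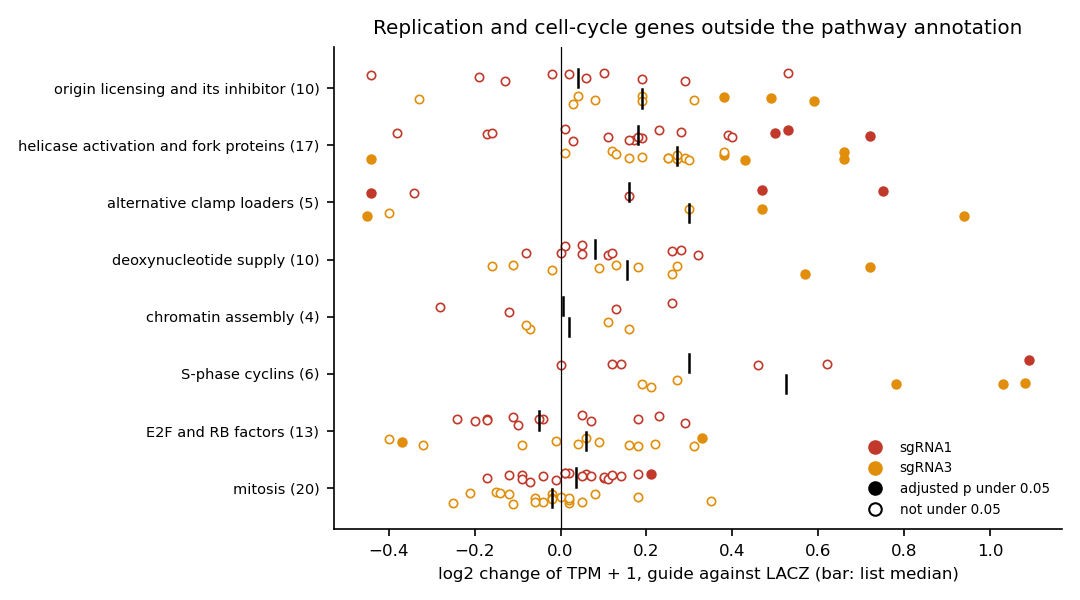
Log2 change of TPM + 1 against LACZ for genes outside the pathway annotation, 1 row per list with its number of genes, sgRNA1 in red above sgRNA3 in orange. Filled points have an adjusted p under 0.05 and black bars are list medians, which run from -0.05 (E2F and RB factors, sgRNA1) to 0.53 (S-phase cyclins, sgRNA3). The row labelled S-phase cyclins also holds CDK2, CDC25A and SKP2, which are not cyclins.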

How the data were processed

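The deposited table holds TPM values that the authors made per gene and library; per the submitters' processing notes the build was GRCh38 and the tools were RSEM 1.3.1, HISAT2 2.1.0 and DESeq2 1.24.0. Columns headed H1 and H3 were taken as titles S1 and S3 by guide number. Annotation release and strandedness are not given; gene types and coordinates come from GENCODE 29. TPM values are not counts, so DESeq2 was not rerun. Genes with at least 1 TPM in at least 2 libraries (16610) were tested as log2(TPM + 1), a scale that understates changes of low genes, in 1 limma 3.58.1 fit (R 4.3.3) over the 3 groups (residual degrees of freedom 3, prior 2.34); the code was tested on simulated data. The adjusted p is Benjamini-Hochberg over all genes tested, with a threshold of 0.05; it measures only the spread between libraries, which may be technical. Members and lists were chosen with earlier results of these data known. Named with each library's value are members past the threshold in any comparison, the MCM genes and PCNA. Outside the pathway up to 4 genes per list with the smallest p are named, some of them without each library's value. Further genes are named only to sum up a group or after their values were seen. The 15 alternatives were other low-value filters, pseudocounts of 0.1 and 5, median-of-ratios and quantile scaling, no trend, only the 2 groups compared, a replicate block, and each library left out.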

Additional observations from a re-analysis of the deposited data

How the results depend on the processing

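Every MCM subunit, PCNA, FEN1 and SSBP1 kept its direction against LACZ under all 15 alternatives, and PCNA kept both calls. POLD4 and RFC2 kept their direction too, with the losses of their calls given above or, for the block, below. For the list genes and SULF2 the alternatives were chosen after seeing the data. Depth is unknown and 2 libraries a group limit the precision. Of all genes, 997 passed with sgRNA1, against 542 with no low-value filter, 295 with no intensity trend, 311 in a fit of only the 2 groups and 150 to 346 with a library left out. With sgRNA3, 1509 passed, against 785, 557, 833 and 192 to 852 under the same alternatives, and between the guides 96, against 0, 12, 2 and 0 to 27. Of the 38 members, 9 passed with sgRNA1, against 1 with no trend, 2 in a fit of only the 2 groups and 1 to 3 with a library left out, and 11 with sgRNA3, against 4 with no trend and 1 to 10 with a library left out. Between the guides 0 to 1 members passed with a library left out. A group left with 1 library was assumed to vary like the others; why the other alternatives move these counts was not tested. Between the guides, values near 0 changed sign: MCM3 (-0.01), FEN1 (-0.02) and POLD4 (-0.03) under median-of-ratios, MCM3 (-0.01), FEN1 (-0.02) and POLD4 (-0.05) under quantile scaling, and with a library left out MCM3 (-0.01 to 0.05), FEN1 (-0.04 to 0.07), POLD4 (-0.08 to 0.09), MCM7 (0.00 to 0.10) and SSBP1 (0.00).

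The labels number the libraries of each group, but deviations from group means of same-numbered libraries did not correlate (-0.018 for sgRNA1 and LACZ, 0.006 for sgRNA3 and LACZ, -0.031 between the guides), so the numbers were not taken as a pairing. With a replicate block 377 genes and 4 members passed with sgRNA1, 561 genes and 8 members with sgRNA3, and 0 genes between the guides. PCNA, FEN1 and SSBP1 kept both calls. Of the MCM calls, 1 of 5 was kept with sgRNA1 (MCM3; adjusted p 0.0449 to 0.0804 over the 5) and 5 of 6 with sgRNA3 (0.0348 to 0.0534 over the 6). The POLD4 calls (0.0727 and 0.0609) and the RFC2 call with sgRNA3 (0.0844) were lost.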
